A study of Rattus norvegicus with 48 samples.

Results

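Liver taken 48 h after a single dose of RDX, a nitramine explosive, was compared between rats given 18 mg/kg and rats given 3 mg/kg. The arrays were chosen by their labels, 3 for the 18 mg/kg group and 3 for the 3 mg/kg group, so 6 of the 48 arrays of the series entered the comparison. All animals were male Sprague-Dawley rats of 300 to 400 g that swallowed pure RDX in a gel capsule, at doses set below those that cause seizures, and their age is not given in the labels. The series also holds liver at 0, 4 and 24 h for both doses and brain cortex at every time. No 48 h group without RDX was among the samples, so each difference is one between doses and not between treated and untreated animals. Nothing in the labels ties an array to an animal of its own, so p-values measure only the spread between arrays, which may be technical.

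Most hepatocytes of an adult liver rest outside the cell cycle, and only a small part of the cells divide at a given time. Dividing cells switch on a set of genes in G2 and M phase that carry the cell into mitosis, build the spindle, separate the chromosomes and divide the cell. Many of these genes are known to share the CHR element, with the letters TTTGAA, and CCAAT boxes near their start sites, through which the DREAM and MuvB complexes and NF-Y act. Metallothioneins, which bind zinc and copper, are known to be induced through metal response elements by the factor MTF1 and also by glucocorticoids.

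Genes of mitosis and cytokinesis lay apart between the doses at 48 h, with no overlap of the arrays, in a larger share than those of any of the other 40 gene lists counted. All of the lists were chosen with earlier results of these data known, so this rank is a description and not a test. Racgap1 and Ect2, partners in starting the contractile ring that divides the cell, were 4.00-fold and 5.71-fold lower in 18 mg/kg than in 3 mg/kg livers. Of 37 measured genes of a mitosis and cytokinesis list, 33 were lower in every 18 mg/kg array than in every 3 mg/kg array (8.86% of all genes were), and the median log2 difference of the list was -1.34. Mt1, a metallothionein, was 3.47-fold higher. These 3 genes and 1 probe set annotated with several symbols were all that passed limma's test, 4 of 31042 probe sets (0.0129%).

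The promoters of a few of these genes are shown because the list's members share sequence there. Each run covers 250 bases before and 50 bases after the RefSeq start site on the GRCr8 assembly, 5′ to 3′ on the gene's strand. Capitals mark TTTGAA and the CCAAT box, on either strand. The Ect2 promoter lies at chr2:111966577-111966876 (minus strand), that of Cdk1 at chr20:19265043-19265342 (plus strand), that of Ccnb2 at chr8:79981609-79981908 (minus strand) and that of Cdc20 at chr5:137255750-137256049 (minus strand).
Ect2: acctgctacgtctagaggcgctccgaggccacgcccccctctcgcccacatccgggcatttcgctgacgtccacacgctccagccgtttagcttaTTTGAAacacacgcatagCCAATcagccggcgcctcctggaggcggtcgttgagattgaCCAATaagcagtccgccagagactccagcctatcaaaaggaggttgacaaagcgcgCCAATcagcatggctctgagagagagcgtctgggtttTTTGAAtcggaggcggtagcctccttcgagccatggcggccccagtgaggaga
Cdk1: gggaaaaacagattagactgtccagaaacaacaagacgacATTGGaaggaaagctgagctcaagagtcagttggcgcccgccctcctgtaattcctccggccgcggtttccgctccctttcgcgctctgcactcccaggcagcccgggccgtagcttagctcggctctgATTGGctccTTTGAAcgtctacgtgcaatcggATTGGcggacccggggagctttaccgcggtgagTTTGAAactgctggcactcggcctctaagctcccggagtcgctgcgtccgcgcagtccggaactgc
Ccnb2: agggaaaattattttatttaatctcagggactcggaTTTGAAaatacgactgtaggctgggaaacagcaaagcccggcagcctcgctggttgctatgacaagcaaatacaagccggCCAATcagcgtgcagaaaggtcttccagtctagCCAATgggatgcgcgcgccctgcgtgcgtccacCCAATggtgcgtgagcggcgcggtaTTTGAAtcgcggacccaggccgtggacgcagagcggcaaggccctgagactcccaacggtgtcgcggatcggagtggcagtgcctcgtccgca
Cdc20: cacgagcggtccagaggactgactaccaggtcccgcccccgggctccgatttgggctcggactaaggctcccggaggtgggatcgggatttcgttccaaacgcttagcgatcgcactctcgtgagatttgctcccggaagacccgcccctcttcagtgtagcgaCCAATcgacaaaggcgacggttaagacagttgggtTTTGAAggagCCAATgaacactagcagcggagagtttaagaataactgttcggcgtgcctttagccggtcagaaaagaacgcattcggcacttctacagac

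Both strands of each promoter were searched, and in the promoters shown no 2 matches overlap. Of the 37 measured members of the mitosis list, 33 had a promoter in the RefSeq table. TTTGAA occurred in 21 of these 33 (63.6%), against 18.3% of all 33469 promoters of the same length. CCAAT occurred in 25 of 33 (75.8%), against 37.5% of all promoters, and both motifs in 18 of 33 (54.5%), against 7.41%. Ect2, Cdk1 and Ccnb2 each held 2 TTTGAA and 3 CCAAT matches, and Cdc20 held 1 and 2. The Ccnb1 promoter held 2 CCAAT and 0 TTTGAA matches. A match is a description of the letters and not a measured site. Racgap1 and Ube2c are not among the promoters of the table.

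The promoter of Mt1 is shown in the same way, at chr19:10832926-10833225 (minus strand), with capitals for the metal response element letters TGCACNC and TGCGCNC and their reverse complements, where N is any base.
Mt1: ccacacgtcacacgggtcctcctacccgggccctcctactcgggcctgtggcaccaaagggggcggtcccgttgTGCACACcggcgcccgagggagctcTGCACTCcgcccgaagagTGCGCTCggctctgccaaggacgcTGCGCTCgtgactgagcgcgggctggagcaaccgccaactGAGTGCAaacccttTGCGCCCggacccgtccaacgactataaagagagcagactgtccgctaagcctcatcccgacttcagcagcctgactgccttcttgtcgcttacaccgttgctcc
It held 3 matches of TGCACNC and 3 of TGCGCNC. One or more such matches occurred in 24.2% of all 33469 promoters, and 6 or more in 13 of them (0.0388%).

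Levels are log2 values that the authors deposited after RMA, so a difference of 1 is a 2-fold difference, and differences are given as 18 minus 3 mg/kg. Alb, the serum albumin gene and a hepatocyte marker, was at 14.35 ± 0.016 in 18 mg/kg arrays and 14.31 ± 0.031 in 3 mg/kg arrays (SD, n = 3 each), so both groups carried a strong liver signal. Replicate 2 of the 3 mg/kg group stood apart by pancreas transcripts. The mean of 15 measured acinar markers was 5.42, 5.52 and 5.51 in the 18 mg/kg arrays and 5.65, 8.80 and 5.45 in the 3 mg/kg arrays. Prss1, a trypsinogen chosen after its values were seen, was at 5.74, 5.55 and 5.25 in 18 mg/kg arrays and at 5.91, 10.32 and 5.36 in 3 mg/kg arrays. That array was kept. Values without it are given for the called probe sets, the mitosis list, the number of calls and the comparison of times. For the other genes and lists they are not given. The gap between the 3′ and 5′ actin controls, a measure of RNA integrity that grows as RNA degrades, was 3.50, 3.67 and 3.44 in 18 mg/kg arrays and 3.25, 3.36 and 2.84 in 3 mg/kg arrays. The groups did not overlap (exact permutation p = 0.1, two-sided, the smallest that 3 against 3 arrays can give). The GAPDH gap was 4.05, 2.97 and 2.83 in 18 mg/kg arrays and 2.33, 3.17 and 2.40 in 3 mg/kg arrays (exact permutation p = 0.3). The SD of all log2 values of an array was 1.96 to 1.98 in 18 mg/kg arrays and 2.02 to 2.08 in 3 mg/kg arrays.

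Over the whole array, limma called 4 of 31042 probe sets (0.0129%) with Benjamini-Hochberg adjustment at a threshold of 0.05, 1 higher (0.00322%) and 3 lower (0.00966%). At an unadjusted p under 0.05 there were 3056 probe sets (9.84%), 1654 higher and 1402 lower. For a gene with several probe sets the brightest stands for it, which gave 14217 genes, of which 3 were called (0.0211%). The median difference over all genes was -0.03. In 1260 genes (8.86%) every 18 mg/kg array lay below every 3 mg/kg array, and in 1037 genes (7.29%) above.

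**Figure D1:**
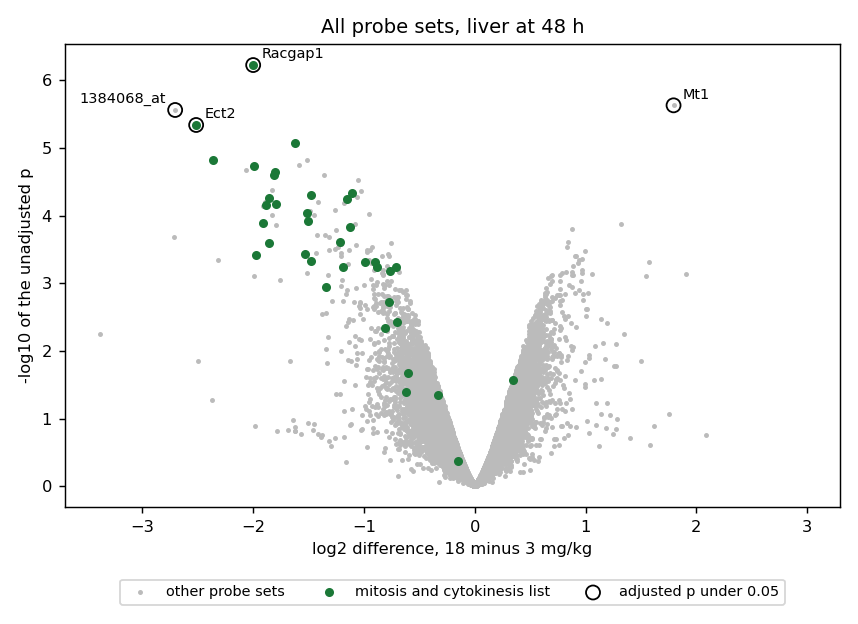
Each point is 1 of 31042 probe sets in liver at 48 h, with the log2 difference (18 minus 3 mg/kg) across and -log10 of limma's unadjusted p upward; green points are the 37 members of the mitosis and cytokinesis list and circles mark the 4 probe sets with an adjusted p under 0.05. All green points but Kif23 lie left of 0, Racgap1, Ect2 and probe set 1384068_at are circled on the left and Mt1 on the right.

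Racgap1, a GTPase-activating subunit of centralspindlin at the spindle midzone, was at 5.61, 5.21 and 5.32 in 18 mg/kg arrays and at 7.40, 7.53 and 7.22 in 3 mg/kg arrays. All 18 mg/kg arrays lay more than 1 log2 unit below the lowest 3 mg/kg array. The difference was -2.0 ± 0.16 (SE, n = 3 per group; limma adjusted p = 0.018). The second probe set of Racgap1, 1384259_at, had a difference of -0.66 (adjusted p = 0.37). Ect2, the guanine nucleotide exchange factor that Racgap1 recruits to activate RhoA at the cell equator, was at 5.57, 4.99 and 5.73 in 18 mg/kg arrays and at 8.08, 8.30 and 7.46 in 3 mg/kg arrays. The groups were again far apart, and the difference was -2.51 ± 0.26 (adjusted p = 0.035). Probe set 1384068_at, which the annotation pairs with several symbols and which is therefore left unnamed, was at 5.62, 4.99 and 5.73 in 18 mg/kg arrays and at 7.87, 8.66 and 7.92 in 3 mg/kg arrays. It was lower by 2.70 on the log2 scale in 18 mg/kg arrays (adjusted p = 0.028). Prc1, a microtubule bundler of the same midzone that was chosen after its values were seen, was at 6.0, 5.24 and 6.15 in 18 mg/kg arrays and at 7.76, 7.79 and 7.22 in 3 mg/kg arrays. Its arrays did not overlap, and its difference of -1.79 ± 0.26 did not pass (adjusted p = 0.082).

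The calls for Racgap1 and Ect2 depended on single arrays while their differences did not. Without 3 mg/kg replicate 2, the array with pancreas transcripts, Racgap1 was at -1.93 (adjusted p = 0.067), Ect2 at -2.34 (adjusted p = 0.10) and probe set 1384068_at at -2.45 (adjusted p = 0.067). Without each of the 6 arrays in turn, the difference of Racgap1 lay between -2.11 and -1.91 with adjusted p from 0.028 to 0.21, and that of Ect2 between -2.76 and -2.29 with adjusted p from 0.030 to 0.29. With the actin gap as a covariate they were -2.12 and -2.83, and neither passed (adjusted p = 0.48 for both). In a fit of all 24 liver arrays, which called 9 probe sets (0.029%), both passed (adjusted p = 0.0081 and 0.0015).

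Among the cyclins, their kinase and its activators, 5 of 6 measured members lay below without overlap, with a median difference of -1.90. Cdk1, the kinase that drives entry into mitosis, was at 6.11, 4.83 and 5.60 in 18 mg/kg arrays and at 7.94, 7.85 and 7.82 in 3 mg/kg arrays. Its 3 mg/kg arrays were nearly level while its 18 mg/kg arrays spread over more than 1 log2 unit, and the difference of -2.36 ± 0.28 missed the threshold (adjusted p = 0.060). Ccnb1, the cyclin B1 partner of that kinase, was at 5.86, 5.40 and 5.47 in 18 mg/kg arrays and at 8.13, 7.53 and 6.81 in 3 mg/kg arrays. Its groups did not overlap (difference -1.91 ± 0.30, adjusted p = 0.11), and its other probe set 1370346_at was at -2.06 ± 0.26 (adjusted p = 0.060). Ccnb2 (cyclin B2), chosen with the other list members below after the values were seen, was at 7.12, 5.70 and 6.31 in 18 mg/kg arrays and at 8.76, 8.48 and 7.79 in 3 mg/kg arrays. Ccna2, cyclin A2 of S and G2 phase, had a difference of -1.88 ± 0.27 (adjusted p = 0.082) without overlap. Cdc25b, a phosphatase that activates the kinase, overlapped between the groups (-0.60, adjusted p = 0.45).

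The genes that end mitosis lay below in the same way. Cdc20, the activator of the anaphase-promoting complex, was at 6.51, 6.02 and 6.10 in 18 mg/kg arrays and at 8.32, 8.16 and 7.55 in 3 mg/kg arrays. Ube2c, the ubiquitin-conjugating enzyme of that complex, was at 6.72, 6.64 and 7.0 in 18 mg/kg arrays and at 8.44, 8.66 and 8.13 in 3 mg/kg arrays. In both genes every 18 mg/kg array lay more than 1 log2 unit below the lowest 3 mg/kg array, and both missed the threshold, Cdc20 at -1.80 ± 0.23 (adjusted p = 0.060) and Ube2c at -1.62 ± 0.18 (adjusted p = 0.052). Cdc20 has 5 probe sets, and their differences ran from -1.80 for the brightest to 0.13 for 1 that lay higher without overlap (adjusted p = 0.78). Pttg1, securin, which the complex degrades to release the chromosomes, was at -1.34 ± 0.28 (adjusted p = 0.26), without overlap.

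Of 11 mitotic kinases and checkpoint members, 10 lay below without overlap, with a median difference of -0.90. Bub1 and Ttk, kinases of the spindle checkpoint, had differences of -1.48 ± 0.20 (adjusted p = 0.082) and -1.51 ± 0.23 (adjusted p = 0.11). Aurkb, the Aurora B kinase, and Birc5 (survivin) and Cdca8 (borealin), subunits of its chromosomal passenger complex, were at -0.90, -0.88 and -1.11 (adjusted p = 0.19, 0.20 and 0.082). Aurka, the Aurora A kinase of the spindle poles, and Plk1, the polo-like kinase, were at -1.19 and -0.81 (adjusted p = 0.20 and 0.36). Differences in this group were thus smaller than among the cyclins, and whether they differ from them was not tested.

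Spindle, motor and kinetochore genes gave 9 of 11 members below without overlap, with a median of -1.13. Spc25, a subunit of the NDC80 complex that holds microtubules at the kinetochore, was at 6.17, 5.35 and 5.55 in 18 mg/kg arrays and at 7.55, 7.73 and 7.22 in 3 mg/kg arrays. Its difference was -1.81 ± 0.23 (adjusted p = 0.060), and Nuf2 of the same complex was at -1.21 ± 0.21 (adjusted p = 0.16). Kif20a, a kinesin of the midzone, and Nusap1, a spindle microtubule protein, had differences of -1.86 (adjusted p = 0.16) and -1.85 (adjusted p = 0.082). Kif11, the kinesin that pushes the spindle poles apart, was at -0.71 (adjusted p = 0.20). Kif23, the motor subunit of centralspindlin that pairs with Racgap1, was the only member above 0. Its brightest probe set 1395828_at was at 5.88, 5.92 and 5.84 in 18 mg/kg arrays and at 5.49, 5.59 and 5.53 in 3 mg/kg arrays (difference 0.34, adjusted p = 0.47), and all 18 mg/kg arrays lay above. The other Kif23 probe set, 1391063_at, was at 4.77, 4.39 and 4.82 in 18 mg/kg arrays and at 6.94, 6.66 and 5.76 in 3 mg/kg arrays (difference -1.79, adjusted p = 0.11). The 2 probe sets of Kif23 thus disagreed in direction. Cenpe, a kinetochore motor, overlapped (-0.15, adjusted p = 0.80).

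Mki67, the proliferation marker that coats mitotic chromosomes, was at 6.01, 5.29 and 6.03 in 18 mg/kg arrays and at 7.96, 7.95 and 7.38 in 3 mg/kg arrays. Top2a, the topoisomerase that untangles them, was at 6.55, 5.96 and 6.45 in 18 mg/kg arrays and at 7.89, 8.18 and 7.45 in 3 mg/kg arrays. Neither gene's arrays overlapped, and the differences were -1.99 ± 0.24 (adjusted p = 0.060) and -1.52 ± 0.23 (adjusted p = 0.092). Outside the list, Stmn1, a microtubule destabiliser of dividing cells, was at -1.52 ± 0.18 (adjusted p = 0.060), and Aspm, a spindle pole protein, at -1.05 ± 0.14 (adjusted p = 0.065). At an adjusted p under 0.1, looser than the threshold of 0.05, there were 23 of 14217 genes at 48 h, 22 of them lower at 18 mg/kg. Of these 23, 14 were among the 37 members of the mitosis list, which was chosen with earlier results of these data known.

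**Figure D2:**
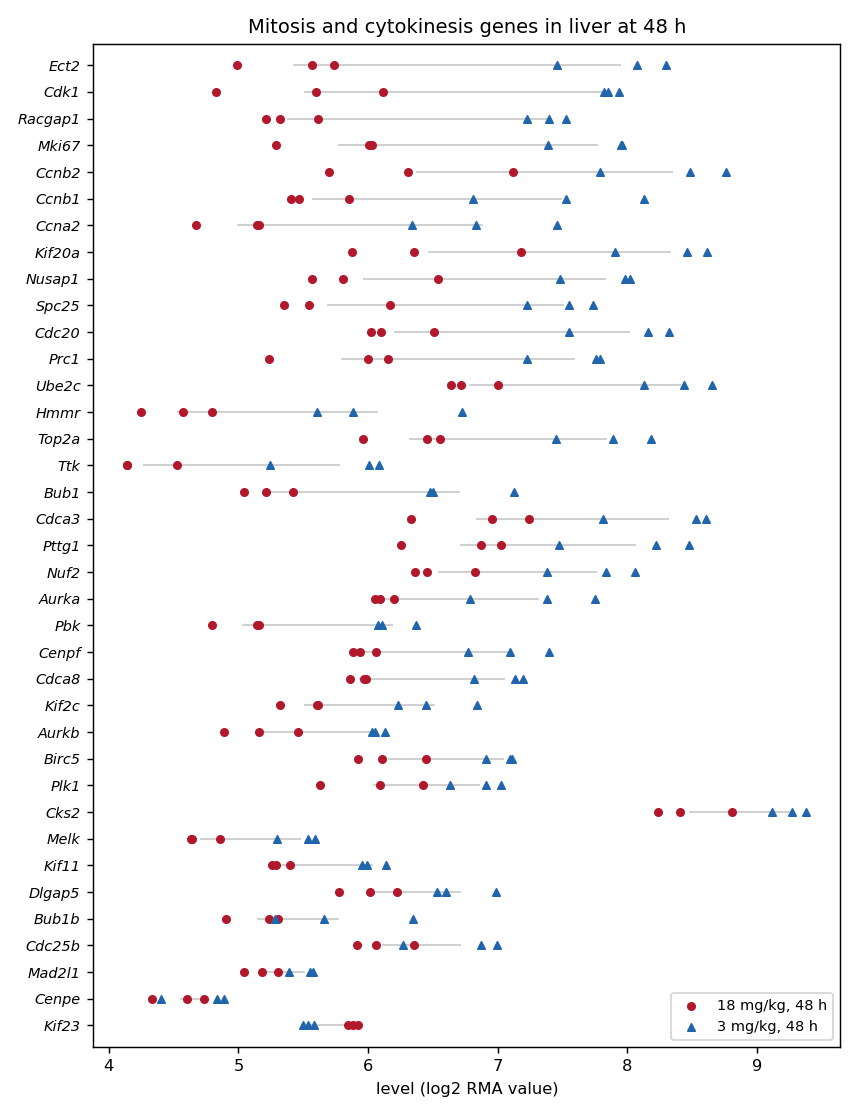
The log2 level of each of the 37 measured mitosis and cytokinesis genes is plotted for the 3 arrays at 18 mg/kg (red circles) and the 3 at 3 mg/kg (blue triangles) in liver at 48 h; a grey line joins the 2 group means, and genes run from the most negative difference at the top to the most positive. In 33 genes all circles lie left of all triangles; Bub1b, Cdc25b and Cenpe overlap and Kif23 runs the other way.

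Without the 3 mg/kg array that held pancreas transcripts, the median of the mitosis list was -1.26, and 34 of 37 members lay below without overlap. Fewer arrays make overlap rarer in every gene, and 15.4% of all genes lay below in that setting, against 8.86% with all 6 arrays, so that the count could not drop below 33 and says nothing of stability. With the actin gap as a covariate the median was -1.65. The part of RNA integrity in the difference was not tested further. The number of members that passed, 2 here, ranged from 0 to 8 without single arrays. Fewer dividing cells and less of these transcripts per dividing cell cannot be told apart in bulk liver.

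The same list was followed at the other times, which share no arrays with 48 h. Its mean level over the 3 arrays of a group at 0, 4, 24 and 48 h was 7.26, 6.85, 6.38 and 5.78 at 18 mg/kg and 7.21, 6.61, 7.67 and 7.07 at 3 mg/kg. At 24 h, 30 of 37 members lay below without overlap (3.53% of all genes did), with a median difference of -1.39, and 29 of these 30 were also among the 33 at 48 h. At 0 h, 0 members lay below without overlap (8.48% of all genes did), with a median of 0.04, while at 4 h 8 lay above (7.2% of all genes) and 1 below (11%), with a median of 0.25. The lower 48 h level at 18 mg/kg was thus shared by the 24 h arrays and not by the 0 and 4 h arrays. No probe set passed in the separate fits at 0, 4 and 24 h, where the smallest adjusted p was 0.37, 0.84 and 0.067, and 4153, 1526 and 1116 probe sets had an unadjusted p under 0.05.

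For Racgap1, the difference between doses was 0.04 ± 0.35 at 0 h, 0.21 ± 0.22 at 4 h and -1.82 ± 0.32 at 24 h (SE), beside -2.0 at 48 h. For Ect2 it was -0.43 ± 0.37, -0.25 ± 0.28 and -2.0 ± 0.23, beside -2.51. Whether the difference at 48 h departed from that at another time was tested in a fit of all 24 liver arrays. Against 0 h it departed in 0 probe sets (5786 at an unadjusted p under 0.05), against 4 h in 2 (0.00644%) and against 24 h in 0 (747 at an unadjusted p under 0.05). The 2 were probe set 1384068_at and the Ccnb1 probe set 1370346_at. Racgap1 and Ect2 were not among them, with changes in the difference from 4 h to 48 h of -2.21 and -2.26 (adjusted p = 0.25 for both).

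**Figure D3:**
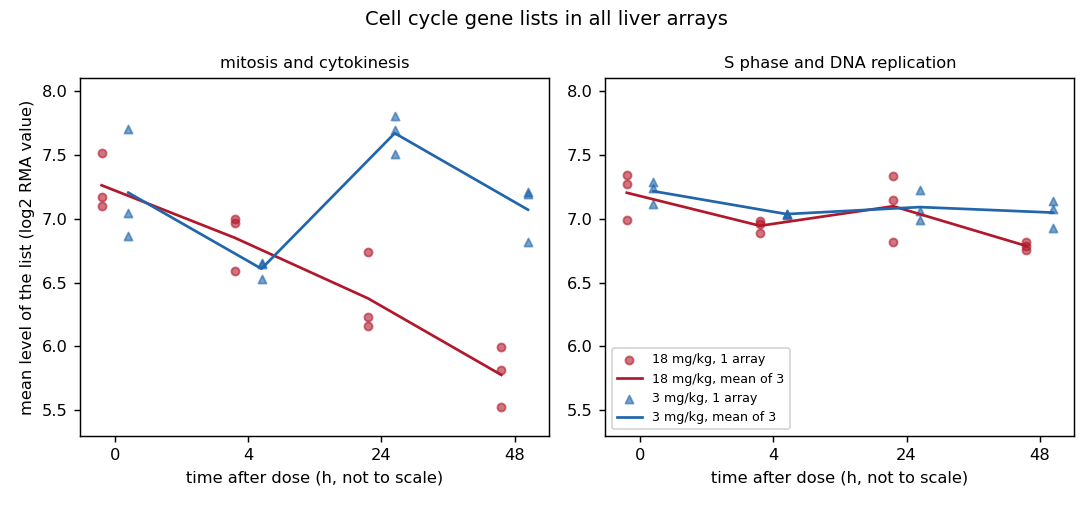
The mean log2 level of the mitosis and cytokinesis list (left) and of the S phase and DNA replication list (right) is plotted per array at 0, 4, 24 and 48 h after 18 mg/kg (red circles) and 3 mg/kg (blue triangles), with lines through the means of 3 arrays; the time axis is not to scale. For mitosis the doses separate at 24 and 48 h; for S phase the 48 h arrays lie at 6.76 to 6.81 at 18 mg/kg and 6.92 to 7.14 at 3 mg/kg.

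Genes of the earlier cell cycle phases lay closer together. Of 28 measured S phase and DNA replication genes, 6 lay below without overlap (21.4%, against 8.86% of all genes) and 0 above (7.29% of all genes). The median was -0.22, and none passed. Mcm6, a subunit of the replicative helicase, was at 4.92, 4.17 and 4.97 in 18 mg/kg arrays and at 5.42, 5.80 and 6.12 in 3 mg/kg arrays (difference -1.09, adjusted p = 0.30). E2f1, an activator of S phase genes, and Tk1, thymidine kinase, were at -0.56 and -0.60 (adjusted p = 0.41 and 0.45), and Pcna, the polymerase clamp, overlapped at -0.32 (adjusted p = 0.59). The last 3 were chosen after their values were seen. Among 26 G1 cyclins, CDK inhibitors and p53 targets, 4 lay below (15.4%) and 1 above (3.85%) without overlap, with a median of -0.15. Cdk4, a G1 kinase, was at -0.41 (adjusted p = 0.45), and Cdkn1a, the p21 inhibitor that p53 induces, overlapped at 0.20 (adjusted p = 0.76).

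Mt1 was the only gene called higher at 18 than at 3 mg/kg. It was at 9.71, 10.07 and 9.88 in 18 mg/kg arrays and at 8.13, 7.84 and 8.31 in 3 mg/kg arrays. The groups lay more than 1 log2 unit apart, and the difference was 1.79 ± 0.17 (SE, n = 3 per group; adjusted p = 0.028). Mt2A, a second metallothionein and named after its values were seen, was at 10.57, 11.83 and 11.36 in 18 mg/kg arrays and at 11.03, 10.91 and 10.70 in 3 mg/kg arrays. Its groups overlapped, with a difference of 0.37 (adjusted p = 0.68). No other of the 27 measured iron, heme and metallothionein genes lay above or below without overlap.

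The call for Mt1 rested on the 48 h arrays' own spread. Its mean level at 0, 4, 24 and 48 h was 8.84 ± 0.59, 10.40 ± 0.77, 8.16 ± 0.78 and 9.89 ± 0.18 at 18 mg/kg (SD, n = 3) and 9.89 ± 0.40, 10.00 ± 0.28, 9.01 ± 0.99 and 8.09 ± 0.23 at 3 mg/kg. Means at 18 mg/kg were lower at 0 and 24 h and higher at 4 and 48 h, and the SDs at 0, 4 and 24 h exceeded those at 48 h. In the fit of all 24 liver arrays, which pools those spreads, Mt1 did not pass (adjusted p = 0.39). Without 3 mg/kg replicate 2 it was at 1.67 (adjusted p = 0.079). Without each of the 6 arrays in turn, the difference of Mt1 lay between 1.67 and 1.90, with adjusted p from 0.030 to 0.22. With the actin gap as a covariate it was 1.98 and did not pass (adjusted p = 0.48), nor did it with a replicate block (adjusted p = 0.17).

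**Figure D4:**
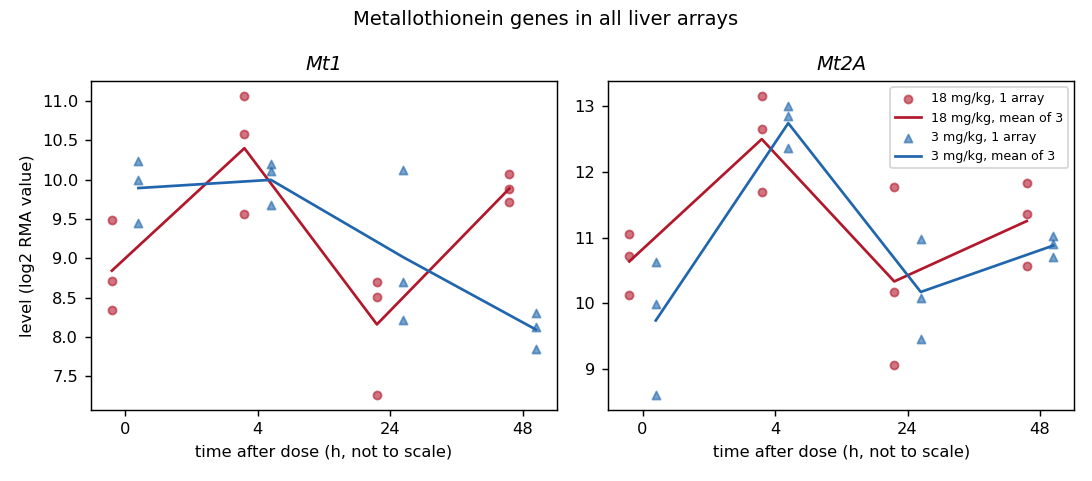
Levels of Mt1 (left) and Mt2A (right) are plotted per liver array at 0, 4, 24 and 48 h after 18 mg/kg (red circles) and 3 mg/kg (blue triangles), with lines through the means of 3 arrays; each panel has its own log2 axis and time is not to scale. At 48 h the Mt1 arrays of the doses are apart and close within each dose, while those of Mt2A overlap.

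Markers of non-parenchymal liver cells differed beside these genes without passing the test. All 19 measured stellate cell and matrix markers lay below 0 at 18 mg/kg, with a median of -0.44. Without overlap, 5 lay below (26.3%, against 8.86% of all genes). Tagln, an actin-binding protein of contractile cells, was at 6.30, 6.43 and 6.51 in 18 mg/kg arrays and at 7.47, 7.33 and 7.51 in 3 mg/kg arrays. Its difference was -1.02 ± 0.14 (adjusted p = 0.082). Col4a1, a basement membrane collagen chosen after its values were seen, was at -0.60 (adjusted p = 0.32). The list's mean lay between 7.57 and 7.79 in 18 mg/kg arrays and between 7.97 and 8.30 in 3 mg/kg arrays. At 24 h its median difference was 0.04.

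Endothelial markers gave 5 of 15 below (33.3%) and 2 above (13.3%) without overlap (median -0.14), against 8.86% and 7.29% of all genes. Esam, an endothelial junction protein, was at -0.53 (adjusted p = 0.38). Of 13 Kupffer cell markers, 2 lay below (15.4%, median -0.13), among them C1qb, a complement subunit, at -0.55 (adjusted p = 0.47). Of 9 bile duct markers, 2 lay below (22.2%, median -0.22), with Krt19, a bile duct keratin, at -0.77 (adjusted p = 0.44). Lymphocyte and NK markers ran the other way, with 5 of 21 above (23.8%) and 0 below without overlap and a median of 0.22. Cd8a, the co-receptor of cytotoxic T cells, was at 6.41, 6.18 and 6.40 in 18 mg/kg arrays and at 5.98, 6.02 and 5.66 in 3 mg/kg arrays (difference 0.44, adjusted p = 0.45). None of these markers passed. The 11 hepatocyte markers had a median of -0.01, with 1 below without overlap (9.09%). The part of cell composition in the mitosis difference was not tested.

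No gene of liver metabolism passed. Pnpla3, a lipid droplet hydrolase induced by feeding, was the gene of smallest p among those that lay higher after Mt1, at 7.69, 8.32 and 8.11 in 18 mg/kg arrays and at 6.41, 6.81 and 6.93 in 3 mg/kg arrays. Its groups did not overlap (1.32 ± 0.21, adjusted p = 0.11), while at 24 h its difference was -1.56. Of 25 fatty acid and triglyceride synthesis genes, 5 lay above (20%) and 3 below (12%) without overlap, with a median of 0.01. Over all genes, 7.29% lay above and 8.86% below. Fasn, fatty acid synthase, was at 0.48 and Scd2, a stearoyl-CoA desaturase chosen after its values were seen, at -0.91 (adjusted p = 0.45 and 0.30). Srebf1, the lipogenic transcription factor gene, overlapped at 0.21 (adjusted p = 0.75), and its other probe set at -0.50 (adjusted p = 0.76).

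No drug metabolism gene passed either. Of 27 measured cytochrome P450 genes of families 2 and 3, 1 lay above (3.7%) and 3 below (11.1%) without overlap. The shares over all genes were 7.29% and 8.86%, and the median of the list was -0.07. Cyp3a9, the member of smallest p, was at -0.61 ± 0.14 (adjusted p = 0.31), and Cyp2c11, the main male-specific form, was at -0.07 (adjusted p = 0.88). Cyp1a1 and Cyp1a2, targets of the aryl hydrocarbon receptor, overlapped at 0.21 and -0.37 (adjusted p = 0.75 and 0.53). Of 26 NRF2 antioxidant targets, 8 lay below (30.8%) and 1 above (3.85%) without overlap, with a median of -0.13. Gsr, glutathione reductase, was at -0.73 (adjusted p = 0.29) and Nqo1, a quinone reductase, overlapped at -0.47 (adjusted p = 0.51).

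Urea cycle and amino acid breakdown genes had 7 of 39 members below (17.9%) and 1 above (2.56%) without overlap, with a median of -0.11. The shares over all genes were 8.86% below and 7.29% above. Hgd, homogentisate dioxygenase of tyrosine breakdown, was at -0.86 and Ass1, argininosuccinate synthetase of the urea cycle, at -0.41 (adjusted p = 0.30 and 0.45). Oxidative phosphorylation genes had 11 of 53 below (20.8%) and 1 above (1.89%), with a median of -0.04. The member above was Cox5a, a cytochrome oxidase subunit, at 0.87 (adjusted p = 0.26). Pc, pyruvate carboxylase of gluconeogenesis, was at -0.55 (adjusted p = 0.35). Fatty acid oxidation genes had 2 of 33 below (6.06%) and 0 above, with Cyp4a3, a fatty acid hydroxylase, at -0.69 (adjusted p = 0.36).

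**Figure D5:**
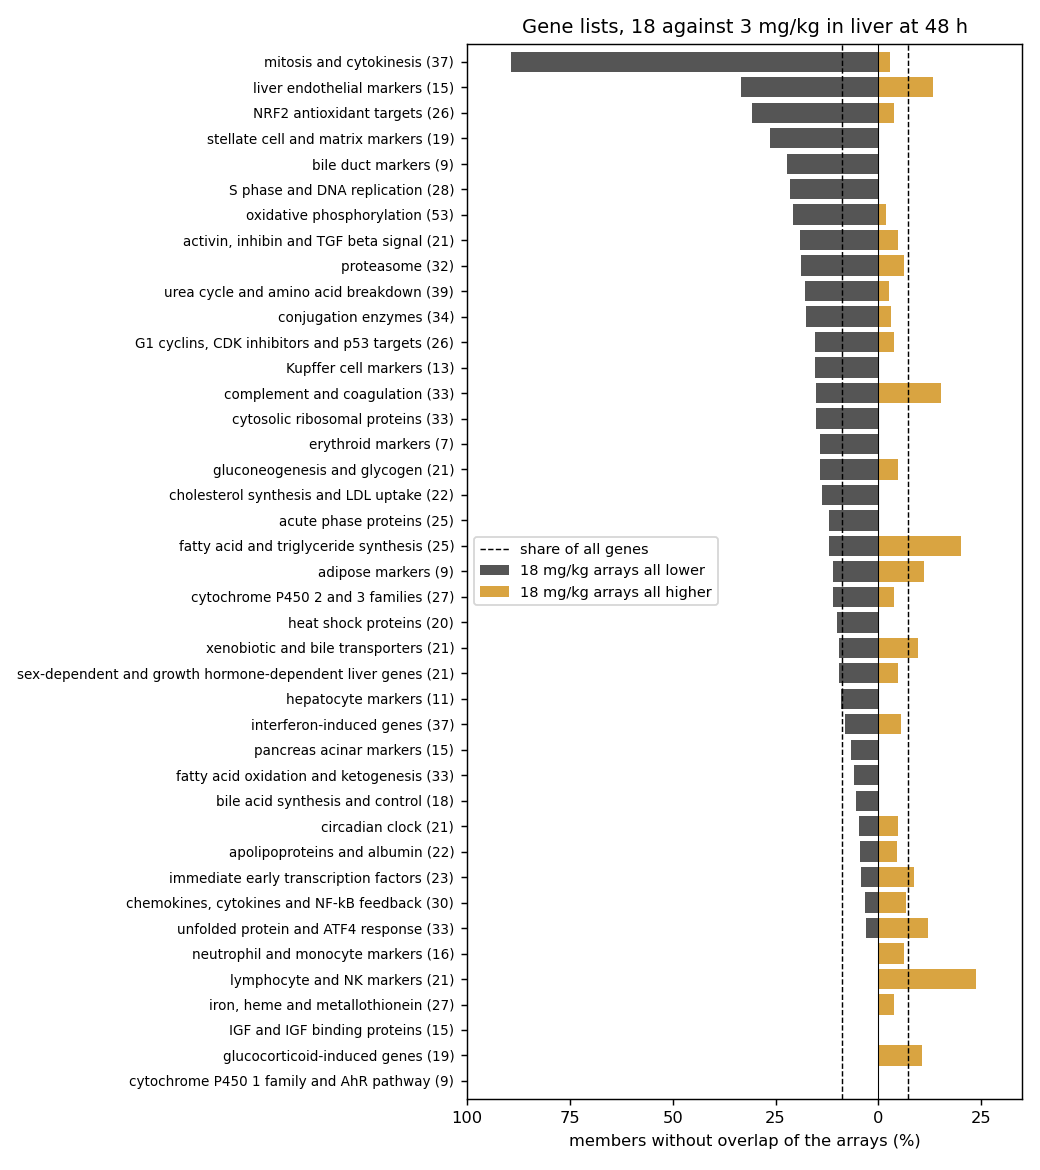
For each of 41 gene lists (number of measured members in parentheses), bars give the percentage of members whose 3 arrays at 18 mg/kg all lay below (grey, left) or all above (gold, right) the 3 arrays at 3 mg/kg in liver at 48 h; dashed lines mark the same shares over all genes, 8.86% below and 7.29% above. The mitosis and cytokinesis bar reaches 89.2%, and the next, liver endothelial markers, 33.3%.

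Genes outside these lists whose brightest probe set lay higher at 18 mg/kg did not pass. By smallest p without overlap these included Zan, a sperm zona-binding protein in other mammals, at 1.0 ± 0.18, Synpo2l, a muscle actin-binding protein, at 0.90 ± 0.17, and Sox6, a transcription factor, at 0.93 ± 0.18 (adjusted p = 0.17, 0.18 and 0.19). Ppp2r2a, a regulatory subunit of protein phosphatase 2A, was at 7.63, 8.22 and 8.81 in 18 mg/kg arrays and at 6.83, 6.21 and 6.89 in 3 mg/kg arrays (difference 1.58 ± 0.30, adjusted p = 0.19). Its other probe set ran the opposite way, at -0.87 without overlap (adjusted p = 0.29), so no direction is given for Ppp2r2a. The other probe set of Sox6 was at -0.06 (adjusted p = 0.95). Slc1a4, a neutral amino acid transporter, was at 1.06 ± 0.21 (adjusted p = 0.22). Among those that lay lower, Crym, a thyroid hormone-binding protein, was at 8.91, 9.18 and 8.69 in 18 mg/kg arrays and at 10.09, 10.34 and 10.44 in 3 mg/kg arrays. Its groups did not overlap, and the difference missed the threshold (-1.36 ± 0.17, adjusted p = 0.060), while at 24 h its difference was -0.01.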

How the data were processed

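Transcripts were measured on Affymetrix whole-genome rat arrays in liver and cortex at 0, 4, 24 and 48 h after 18 or 3 mg/kg RDX, and 6 liver arrays at 48 h were compared here. The authors deposited log2 values, made with RMA and Partek per the submitters' processing notes (versions not given). RMA usually includes a step that equalises arrays. The deposited distributions are not equal, since the SD of log2 values ran from 1.38 to 2.08 over the liver arrays. The values were used as deposited. Of 31099 probe sets, 57 controls were left out and 31042 tested. GEO's platform annotation gave 1 symbol for 20826, several for 436 and none for 9780 of them. Depth does not apply to arrays, and the number of arrays limits the precision.

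Groups came from the sample labels. limma 3.58.1 (R 4.3.3) was fitted to the 6 arrays (lmFit and eBayes, two-sided), with p-values adjusted over all probe sets by Benjamini-Hochberg and a threshold of 0.05. Times were compared in a fit of 24 liver arrays in 8 groups, and other times also in fits of their own 6 arrays. The fit was tested on simulated data. A gene was represented by its brightest single-symbol probe set (highest mean of the 6 arrays). Named were the 12 genes lowest and the 12 highest by difference among those passing without overlap (filled by smallest p), up to 4 passing members or the member of smallest p of each of 41 lists, and 28 fixed genes, of which 23 were measured. The text prints only some of them. The comparison, members and lists were chosen with earlier results of these data known, so lists carry counts and medians and no test. Replicate numbers were not used to pair the samples in the main fit. Alternatives were other array sets, scalings, filters, variance models, weights, covariates, a replicate block and leaving out each array.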

Additional observations from a re-analysis of the deposited data

Results flagged for a closer look

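In a fit of all 24 liver arrays, 2 probe sets had a difference between doses at 48 h that departed from the one at 4 h. Probe set 1384068_at, annotated with several symbols, had a difference that was -3.23 ± 0.45 (SE) at 48 h relative to 4 h on the log2 scale (limma adjusted p = 0.010). Probe set 1370346_at of Ccnb1, cyclin B1, had one of -2.69 ± 0.43 (adjusted p = 0.044). Each rests on 3 arrays per group. The call for 1370346_at was lost after quantile normalization and median centring, with a replicate block, and without 4 of the 6 arrays at 48 h in turn, where its adjusted p ranged from 0.020 to 0.29, while its value lay between -2.94 and -2.49. Without 3 mg/kg 48 h replicate 2, which held pancreas transcripts, it had adjusted p = 0.16, and the call for 1384068_at was lost without replicate 2 of the 18 mg/kg 48 h group (adjusted p = 0.070) and without replicate 2 of the 3 mg/kg 48 h group (adjusted p = 0.066).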

How the results depend on the processing

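The 4 probe sets called became 9 with all 24 liver arrays, 27 with 22 liver arrays (without the 2 arrays of compressed values at 0 and 4 h), 27 with an intensity trend and robust prior, 10 with array weights, 1 with bright probe sets only and 0 with the actin gap as a covariate. Quantile normalization gave 3, median centring 5 and 1 probe set per gene 4. Leaving out 1 array gave 0 to 14: without 18 mg/kg replicates 1, 2 and 3 it gave 11, 0 and 12, and without 3 mg/kg replicates 1, 2 and 3 it gave 0, 0 and 14. These fits have 5 arrays, and the cause of the spread was not tested. Mitosis members called lower numbered 7 with 24 arrays, 14 with 22 arrays, 13 with the trend and robust prior and 5 with array weights. The 33 members below without overlap were 34 after either rescaling. The share of all genes after rescaling was not counted, so this count alone does not show stability. The median of the list, -1.34, lay between -1.65 and -1.17 over all alternatives. Differences were followed through the alternatives for most genes printed here, but not for Bub1b, Prss1, Amy2a3 and Pnlip. Of the genes followed, only Cenpe reversed under any alternative, to 0.0013 with the actin gap as a covariate.

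Probe sets whose difference at 48 h departed from that at 4 h numbered 2, and 1 after quantile normalization, 1 after median centring, and 0 to 2 without single 48 h arrays (0 without replicate 2 of either dose). Against 24 h the count was 0, and 0 to 1 without single arrays. In the fit of 24 arrays 27 probe sets were called at 24 h, 22 of them lower, against 0 in the 24 h arrays' own fit.

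Same-numbered arrays of the 2 doses at 48 h had correlations of -0.089, 0.014 and -0.26 between their deviations from the group means. Deviations centred within 3 arrays cannot show whether the numbers pair the arrays, and the labels do not say. With a replicate block 0 probe sets were called at 48 h. In the fit of times the block gave 1 against 0 h and 1 against 4 h. With 3 arrays a group, differences of small size cannot be shown here, and dim probe sets are compressed toward background.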

Other observations

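For groups of stress, immune and clock genes, counts are set beside the shares over all genes, 7.29% above and 8.86% below without overlap. Of 33 unfolded protein and ATF4 response genes, 4 lay above (12.1%) and 1 below (3.03%) without overlap (median 0.06). Of 20 heat shock genes 0 lay above and 2 below (10%, median -0.15). Among 37 interferon-induced genes 2 lay above (5.41%) and 3 below (8.11%), and among 25 acute phase genes 0 above and 3 below (12%). Of 21 clock genes 1 lay above and 1 below (4.76% each). Per1, a clock gene that glucocorticoids induce, was at 6.77, 7.03 and 7.04 in 18 mg/kg arrays and at 6.22, 6.71 and 6.68 in 3 mg/kg arrays (difference 0.41, limma adjusted p = 0.50). Of 19 measured glucocorticoid-induced genes, 2 lay above (10.5%) and 0 below without overlap, with a median of 0.04. By sign alone, 11 of them were above 0 and 8 below. Igfbp1, an insulin-like growth factor binding protein raised in fasting, overlapped at 0.69 (adjusted p = 0.46). Id3, a target of BMP signalling, was at 6.64, 6.93 and 6.97 in 18 mg/kg arrays and at 8.36, 7.35 and 8.85 in 3 mg/kg arrays (difference -1.34, adjusted p = 0.33), below in all 18 mg/kg arrays.

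One difference ran within the 3 mg/kg group. Amy2a3, a pancreatic amylase, was at 4.27, 4.19 and 4.54 in 18 mg/kg arrays and at 5.51, 9.84 and 4.77 in 3 mg/kg arrays, and Pnlip, pancreatic lipase, at 5.68, 5.74 and 5.82 in 18 mg/kg arrays and at 5.71, 10.03 and 5.65 in 3 mg/kg arrays. Both were chosen after their values were seen. Cela1, an elastase, was at 8.97 to 9.44 in 18 mg/kg arrays and 9.43 to 10.13 in 3 mg/kg arrays.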
